A study of Glycine max with 12 samples.

Results

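In soybean (Glycine max), 9 gene models that act when a plant turns from making leaves to making flowers were followed through 12 messenger RNA libraries of cultivar Williams 82. They comprised 4 homologs of APETALA1 (AP1), 2 homologs of LEAFY, 2 homologs of SUPPRESSOR OF OVEREXPRESSION OF CONSTANS1 (SOC1) and the stem growth gene Dt2, chosen by published locus assignment; the rule used no level, although earlier results of these data were known when the set was drawn up. All 9 stood among the 66210 gene models of the count files. Each stage or organ had 1 library, so no spread between plants is known, no p-value is given, and each interval below covers counting error alone.

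In Arabidopsis, LEAFY and AP1 are transcription factors that give a young lateral meristem the identity of a flower, and LEAFY switches on AP1. SOC1, a MADS-box factor like AP1, gathers signals from day length and age and acts upstream of LEAFY. Dt2, a soybean MADS-box gene of the AP1 subfamily, is known for its effect on whether the stem tip ends in flowers, which it exerts by repressing Dt1, a homolog of the Arabidopsis flowering repressor TERMINAL FLOWER1.

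Whole seeds of greenhouse-grown plants gave 7 libraries. The youngest, at the globular stage, measured 0.8 to 1.1 mm, and heart-stage seeds 2 to 2.5 mm. Cotyledon-stage seeds were 3 to 3.9 mm long and those at early maturation 6 to 7 mm. At mid maturation the seed length was 1.1 to 1.3 cm and at late maturation between 1.2 and 1.5 cm, while a dry seed weighed about 200 mg. The other 5 came from whole seedlings 6 days after imbibition, from trifoliate leaves, nodule-free roots and stem internodes of a mature plant aged 3 to 4 months, and from floral buds that had not opened. Internodes leave out the stem tip and the nodes, and bulk RNA from an organ cannot tell fewer cells of a type from less RNA per cell. The 10 count libraries held 10296612 (stem) to 45726019 counts (globular), and 3 counts, taken as the limit that 0 counts allow, equalled 0.0602 (globular) to 0.283 CPM (stem). CPM are counts per 1e6 of the library after TMM scaling, and they are not divided by gene length. Mid and late maturation were deposited as RPKM and are described apart. The 6 seed markers, among them the glycinin gene Gy1, peaked at early maturation or in dry seed and reached at most 10.2 CPM outside the seed. Of 2 Rubisco small subunit loci listed as leaf markers, Glyma19g06370 peaked in leaf (309.6 CPM), while Glyma13g07610 had 0 counts in all 10 count libraries. No marker list was fixed for root, stem or floral bud.

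The floral bud held nearly all AP1 transcripts. Together the 4 AP1 homologs had 3086 counts in the bud library, 40 in leaf, 10 in stem, 8 in root, 1 in seedling and 4 in all 5 seed count libraries. Glyma16g13070 on chromosome 16 was the most abundant in the bud, with 1437 counts or 35.1 CPM (95% Poisson interval 33.3 to 37.0), which placed it 5171st of the 47414 gene models with a count there. It had 1 count each in heart seed, seedling and root and 0 counts in the other 6 libraries. Against seedling, the next highest, the bud was 682-fold higher (95% exact counting interval 122 to 26935), an interval that wide because seedling held a single count. Against leaf, where it had 0 counts, it was at least 261-fold higher, computed against 3 counts in the leaf library.

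Glyma01g08150 on chromosome 1 had 843 counts in the bud (20.6 CPM), 4 in leaf, 4 in root, 2 in globular seed and 0 in the other 6 libraries. The bud exceeded root, the next highest, by 110-fold (42.8 to 404.5). These 2 homologs were thus close to the counting floor everywhere outside the bud.

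The remaining AP1 homologs had a second organ. Glyma02g13420 on chromosome 2 stood at 11.1 CPM in the bud (10.1 to 12.2) and at 1.61 CPM in leaf (36 counts, 1.13 to 2.23). It had 3 counts in root, 1 in stem and 0 in seedling and all 5 seed count libraries. The bud exceeded leaf 6.88-fold (4.89 to 9.95), and leaf exceeded root 11.5-fold (3.63 to 58.3). In the same leaf library Glyma16g13070, the most abundant AP1 homolog of the bud, had 0 counts. Glyma08g36380 on chromosome 8 had 352 counts in the bud (8.61 CPM, 7.73 to 9.55), 9 in stem (0.848 CPM, 0.388 to 1.61), 1 in cotyledon seed and 0 in the other 7 libraries. Its bud level was 10.1 times that of stem (5.28 to 22.4).

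The 4 copies divided their counts differently by organ. In the bud Glyma16g13070 took 46.6% of the AP1 counts (95% exact binomial interval 44.8 to 48.3), Glyma01g08150 27.3% (25.8 to 28.9), Glyma02g13420 14.7% (13.5 to 16) and Glyma08g36380 11.4% (10.3 to 12.6). In leaf Glyma02g13420 took 90% of 40 counts (76.3 to 97.2), and in stem Glyma08g36380 took 90% of 10 counts (55.5 to 99.7). Neither interval overlapped that of the same copy in the bud. Shares within a library follow gene length as well as level, and the sources used here do not say how reads matching several copies were assigned, so the division between near-identical copies is uncertain.

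**Figure D1:**
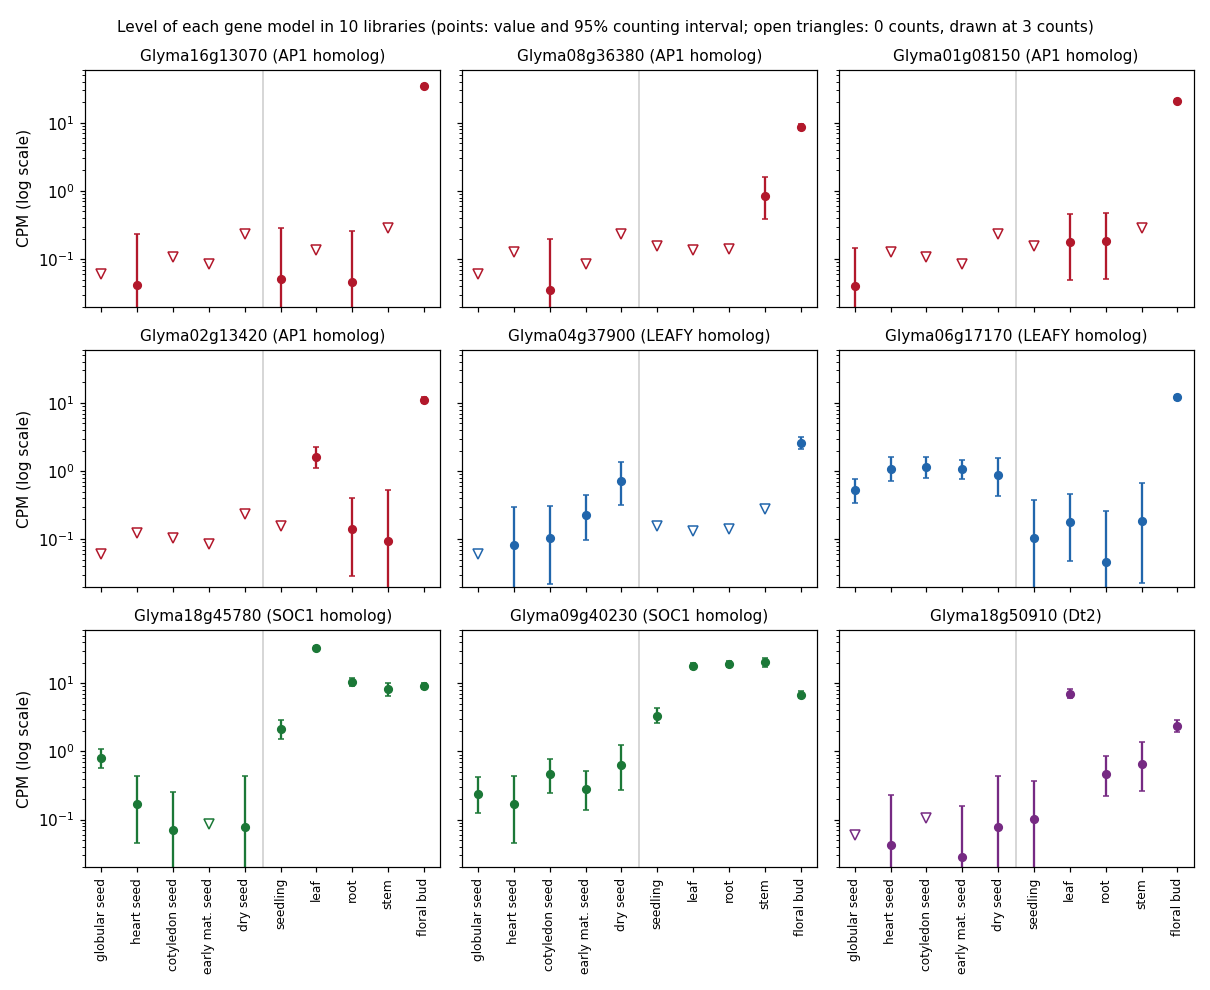
Level of each of the 9 gene models in CPM (log axis) in 5 seed and 5 other libraries, 1 library each. Points carry 95% Poisson intervals, and open triangles mark 0 counts, drawn at the level of 3 counts; the AP1 homologs rise above 2 CPM in floral bud alone, the LEAFY homologs also peak there, and the SOC1 homologs and Dt2 peak elsewhere.

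Both LEAFY homologs peaked in the bud too, and together they had 26 (globular), 28 (heart), 36 (cotyledon), 46 (early maturation) and 20 counts (dry) in the seed libraries, where the AP1 homologs had 2, 1, 1, 0 and 0. Glyma06g17170 on chromosome 6 had 493 counts in the bud, or 12.1 CPM (11 to 13.2). In the seed it stood at 0.522 CPM in globular (26 counts), 1.09 in heart (26 counts), 1.17 in cotyledon (33 counts), 1.08 at early maturation (38 counts) and 0.865 in dry seed (11 counts). Seedling (0.103), leaf (0.179), root (0.0469) and stem (0.188 CPM) held 1 to 4 counts each. The value in each seed library thus lay above that in each of these 4 organs, a pattern chosen after its values were seen. Intervals overlapped in places. Those of stem (0.0228 to 0.681 CPM), leaf (0.0489 to 0.459) and seedling (0.0125 to 0.372) overlapped that of globular seed (0.341 to 0.764). Stem and leaf also overlapped dry seed (0.432 to 1.55). The pattern held for 1 of the 9 genes and for 5.23% of the 36414 gene models averaging at least 1 CPM. The bud exceeded cotyledon seed, the next highest, 10.4-fold (7.27 to 15.2), and the intervals of heart, cotyledon, early-maturation and dry seed overlapped one another.

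Glyma04g37900 on chromosome 4, the less abundant LEAFY homolog, had 107 counts in the bud (2.62 CPM, 2.14 to 3.16). It had 0 counts in seedling, leaf, root and stem. In the seed it had 0 counts at the globular stage, 2 in heart (0.0837 CPM), 3 in cotyledon (0.106), 8 at early maturation (0.227) and 9 in dry seed (0.708 CPM, 0.324 to 1.34). The bud exceeded dry seed 3.70-fold (1.88 to 8.30), or 7.92-fold (4.02 to 17.8) on plain CPM without TMM scaling, so the 4-fold line is crossed by the choice of scaling. Its share of the LEAFY counts was 17.8% in the bud (14.9 to 21.1), 17.4% at early maturation (7.82 to 31.4) and 45% of 20 counts in dry seed (23.1 to 68.5), the last above the bud interval.

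The bud was set against each of the 9 other count libraries by a rule applied to all gene models: a call needed a 4-fold difference, with counts under 3 set to 3, and at least 10 CPM in the higher library. Each share of gene models given beside a count is over the measured ones, those averaging at least 1 CPM over the libraries compared. Of the 9 floral regulators, 4 were called higher in the bud than in each single library, namely Glyma16g13070, Glyma01g08150, Glyma02g13420 and the LEAFY homolog Glyma06g17170, and none was called lower. The share of all measured gene models called higher in the bud was 5.11% against globular, 5.21% against heart, 4.56% against cotyledon, 4.59% against early-maturation and 16.9% against dry seed. It was 3.32% against seedling, 3.65% against leaf, 5.67% against root and 4.42% against stem. The shares called lower in the bud, where the floral regulators had none, were 3.06% against globular, 3.41% against heart, 3.22% against cotyledon, 3.41% against early-maturation and 13.3% against dry seed. They were 5.79% against seedling, 4.56% against leaf, 7.87% against root and 6.81% against stem. None of the 9 reached 10 CPM in a seed count library or in seedling, so none could be called lower in the bud against those libraries. In leaf, root and stem only SOC1 homologs reached 10 CPM. On plain CPM the calls among measured gene models leaned more to the bud, with 25.8% higher and 5.30% lower against dry seed, 6.49% and 2.38% against globular, 6.78% and 2.81% against heart, and 6.83% and 2.54% against early-maturation seed. The plain shares were 4.66% and 4.78% against seedling, 5.71% and 2.65% against leaf, and 5.95% and 5.56% against stem. On that scale Glyma08g36380 was also called higher in the bud than in all 9 other libraries, and the SOC1 homolog Glyma18g45780 higher than in the 5 seed count libraries and seedling. The same 4 genes exceeded the highest of the other 9 libraries by the rule, as did 0.785% of 36414 gene models. The median log2 ratio over the 9 genes ran from 3.34 (against stem) to 6.66 (against early maturation), with all measured gene models between -0.15 and 0.34. The other 5, at under 10 CPM in the bud, could not be called higher by this rule. The highest level of the 10 libraries lay in the bud for 6 of 9 genes, in leaf for 2 and in stem for 1. Among the 36414 measured gene models these shares were 4.61%, 13.4% and 10.9%; Glyma08g36380 and Glyma04g37900, both highest in the bud, averaged under 1 CPM over the 10 libraries (0.949 and 0.374) and are not among those 36414. With a minimum of 1 CPM, the genes called higher in the bud numbered 9 of 9 against globular, heart, cotyledon and early-maturation seed, 8 against dry seed and seedling, 7 against root and 6 against leaf and stem. The shares of measured gene models were then 12.8%, 12.8%, 10.9%, 11.1%, 33.2%, 7.62%, 11.8%, 9.41% and 10.2% in that order. The genes were picked for a known role in flowering, and in each comparison of the bud with 1 library all 9 counted as measured in part through their bud level, so these counts describe the set alone.

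SOC1 transcripts had another distribution: highest in organs of the mature plant other than the bud, lower in seedling and under 1 CPM in the 5 seed count libraries. Glyma18g45780 on chromosome 18 stood at 32.5 CPM in leaf (30.2 to 35.0), 10.5 in root (9.17 to 12.0), 9.24 in bud (8.33 to 10.2), 8.20 in stem (6.57 to 10.1) and 2.11 in seedling (1.52 to 2.87). Leaf was highest, exceeding root 3.10-fold (2.66 to 3.61), bud 3.52-fold (3.10 to 3.99) and seedling 15.4-fold (11.2 to 21.6). Root, bud and stem did not differ beyond their intervals on the TMM scale. On plain CPM bud exceeded stem 1.39-fold (1.095 to 1.77), and stem stood at 0.761 times root (0.587 to 0.979). With DESeq2 size factors stem stood at 0.776 times root (0.598 to 0.998) and bud at 0.830 times root (0.702 to 0.9835). In seeds it had 40 counts at the globular stage (0.803 CPM, 0.573 to 1.09), 4 in heart (0.167), 2 in cotyledon (0.0706), 0 at early maturation and 1 in dry seed (0.0787). Globular exceeded heart 4.80-fold (1.73 to 18.5), both levels being under the minimum for a call. The globular library also held counts of genes that peak later in the seed. The glycinin gene Gy1 had 237 counts in globular, 2 in heart and 295740 at early maturation. For 31 genes above 200 CPM at early maturation and at most 0.5 CPM in heart, the globular level had a median of 6.04 CPM per 10000 CPM at early maturation. Glyma18g45780 had 0 counts at early maturation, and the source of its globular counts was not tested.

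Glyma09g40230 on chromosome 9, the other SOC1 homolog, had similar levels in the mature vegetative organs. On the TMM scale stem (20.2 CPM, 17.6 to 23.1), root (19.1, 17.3 to 21.0) and leaf (17.9, 16.2 to 19.7) did not differ beyond their intervals. Bud (6.75, 5.98 to 7.59) and seedling (3.35, 2.59 to 4.27) followed. On plain CPM root exceeded leaf 1.18-fold (1.03 to 1.36) and stem exceeded leaf 1.22-fold (1.025 to 1.44). With DESeq2 size factors these folds were 1.19 (1.03 to 1.37) and 1.25 (1.05 to 1.48). Stem exceeded bud 2.99-fold (2.49 to 3.59) and seedling 6.02-fold (4.54 to 8.07). Its seed levels were 0.241 CPM in globular (12 counts), 0.167 in heart (4 counts), 0.459 in cotyledon (13 counts), 0.284 at early maturation (10 counts) and 0.629 in dry seed (8 counts), all below its lowest other organ. From dry seed to seedling it stood 5.33 times higher (2.55 to 12.9) and Glyma18g45780 26.9 times higher (4.56 to 1087, from 1 count). On plain CPM these folds were 9.41 (4.5 to 22.7) and 47.5 (8.06 to 1920). Both were calls at a minimum of 1 CPM, as were 34.0% of measured gene models, and neither was at 10 CPM.

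The SOC1 pair differed in its balance between organs. Glyma18g45780 held 64.5% of the SOC1 counts in leaf (61.6 to 67.3) and 57.8% in bud (53.9 to 61.6), but 38.7% in seedling (29.4 to 48.6), 35.5% in root (31.8 to 39.4) and 28.9% in stem (23.8 to 34.4). In globular seed it held 76.9% of 52 counts (63.2 to 87.5), against 13.3% of 15 in cotyledon seed (1.66 to 40.5), 0 of 10 at early maturation (0 to 30.8%) and 11.1% of 9 in dry seed (0.281 to 48.2). Heart seed, with 8 counts, gave 50% (15.7 to 84.3). Leaf and globular lay above seedling, root, stem and the cotyledon, early-maturation and dry seeds with no overlap of intervals, and gene length, being the same in each library, does not enter this comparison.

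**Figure D2:**
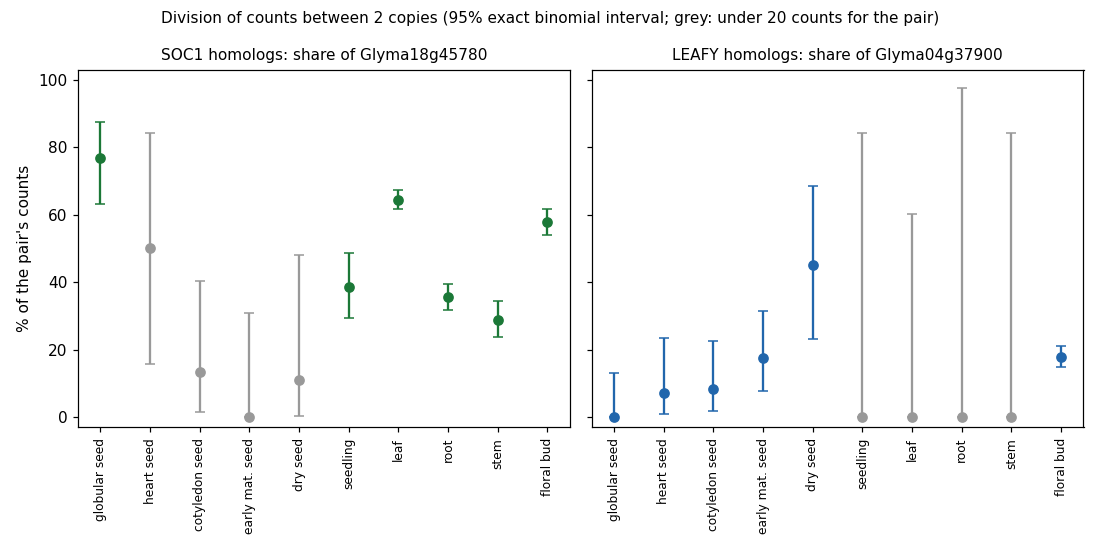
Percentage of the counts of each homolog pair taken by one copy in 10 libraries, with 95% exact binomial intervals; grey points rest on under 20 counts for the pair. Glyma18g45780 took 64.5% of SOC1 counts in leaf against 28.9% in stem, and Glyma04g37900 took 17.8% of LEAFY counts in bud against 45% in dry seed.

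Dt2 (Glyma18g50910, chromosome 18) peaked in leaf rather than in the bud. It stood at 7.04 CPM in leaf (157 counts, 5.98 to 8.23), 2.37 in bud (97 counts, 1.92 to 2.89), 0.660 in stem (7 counts) and 0.469 in root (10 counts). Seedling held 2 counts, heart, early-maturation and dry seed 1 each, and globular and cotyledon seed 0. Leaf exceeded bud 2.97-fold (2.29 to 3.86), root 15.0-fold (7.95 to 31.9) and stem 10.7-fold (5.06 to 27.0). Dt1 (Glyma19g37890), the gene that Dt2 is known to repress, had 24 counts in root (1.13 CPM, 0.721 to 1.67), 4 in bud, 3 in seedling and 0 in leaf, stem and all 5 seed count libraries. A link between the levels of Dt2 and Dt1 was not tested.

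Among leaf, root, stem and seedling, only the SOC1 homologs reached 10 CPM, so no other gene could be called. Of the 54 gene and organ pairs, 5 were called, all of them a SOC1 homolog lower in seedling. Both were lower in seedling than in leaf (4.39% of measured gene models were called so) and in root (3.97%), and Glyma09g40230 was lower than in stem (3.83%). For the comparisons without a call, 7.86% were higher in seedling than in leaf, 6.06% than in root and 4.67% than in stem. Root against leaf had 11.5% higher and 10.5% lower, stem against leaf 10.7% and 9.35%, and stem against root 3.53% and 3.81%. At a minimum of 1 CPM the calls rose to 11, adding Dt2 and the AP1 homolog Glyma02g13420, each higher in leaf than in root (15.3%), stem (14.2%) and seedling (7.51%); 6.93% and 6.37% were lower in seedling than in root and stem. Glyma02g13420 averaged under 1 CPM in each of its 3 pairs, so its 3 calls lie outside the measured gene models that these shares describe. The SOC1 homologs and Dt2 were also the genes whose 5 non-seed libraries all lay above their 5 seed count libraries. This held for 3 of 9 genes and for 5.79% of 36414 gene models; for Dt2 it rests on 2 counts in seedling against 1 in dry seed. By the call rule the highest non-seed library exceeded the highest seed library for 6 of 9 genes (13.2% of measured gene models). The reverse, called for 9.32% of measured gene models, could not be called for any of the 9 genes. None of them reached 10 CPM in a seed count library.

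Across the seed steps no floral regulator was called in either direction, in a series of 45 gene and step pairs; the steps were globular to heart, heart to cotyledon, cotyledon to early maturation, early maturation to dry seed, and dry seed to seedling. Only 0, 1, 1, 0 and 2 of the 9 genes averaged at least 1 CPM in the 5 steps. The shares of measured gene models called higher and lower were 1.42% and 0.808%, 0.547% and 0.116%, 1.91% and 1.44%, 13.7% and 17.9%, and 18.2% and 13.0% in these steps. On plain CPM the step to early maturation had 1.39% and 2.20%, that to dry seed 8.18% and 21.5%, and that to seedling 23.5% and 6.34%. None of the 9 reached 10 CPM in a seed library or in seedling, so none could be called.

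The mid- and late-maturation seed libraries were deposited as RPKM, a level per gene length, and listed genes above 0 only. None of the 4 AP1 homologs was listed in either. The depth recovered from the values was 59542387 reads at mid and 103601188 at late maturation. The LEAFY homolog Glyma04g37900 went from 0.0477 to 0.923 RPKM, values that fit 3 and 101 reads, which is 19.4-fold (6.44 to 95.4). Glyma06g17170 went from 0.103 to 0.276 RPKM, at least 3 and 14 reads, 2.68-fold (0.749 to 14.6). The per-length ratio of Glyma04g37900 to Glyma06g17170 was thus 0.464 at mid and 3.35 at late maturation. The mid ratio may rest on as few as 3 reads a copy, so which copy was the lesser at mid maturation is not resolved.

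The SOC1 homolog Glyma09g40230 went from 0.237 to 1.01 RPKM (19 and 141 reads), 4.27-fold (2.63 to 7.30). Glyma18g45780 was listed at mid maturation alone, at 0.0128 RPKM, which fits 1 read. Dt2 had 0.0167 and 0.0480 RPKM, fitting 1 and 5 reads. On the log2(RPKM + 0.5) scale, a call needed a 4-fold change and a higher value of 5 RPKM or more; 0 of 9 floral regulators were called, against 10.9% of 26234 gene models higher and 7.35% lower in late maturation, and none reached 5 RPKM. By the plain ratio, 2 of the 4 genes listed in both libraries were at least 4 times higher, as were 13.2% of the 38391 gene models listed in both. Among the 9096 of these with a mean of 0.1 to 1 RPKM the share was 9.72%. The median log2 ratio of the 20068 gene models at 1 RPKM or more in each library was 0.53. In reads per 1e6 without TMM scaling, Glyma04g37900 stood at 0.975 in late maturation and 0.418 in dry seed, but these libraries differ in unit, processing and sequencer, so stage and batch cannot be told apart.

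**Figure D3:**
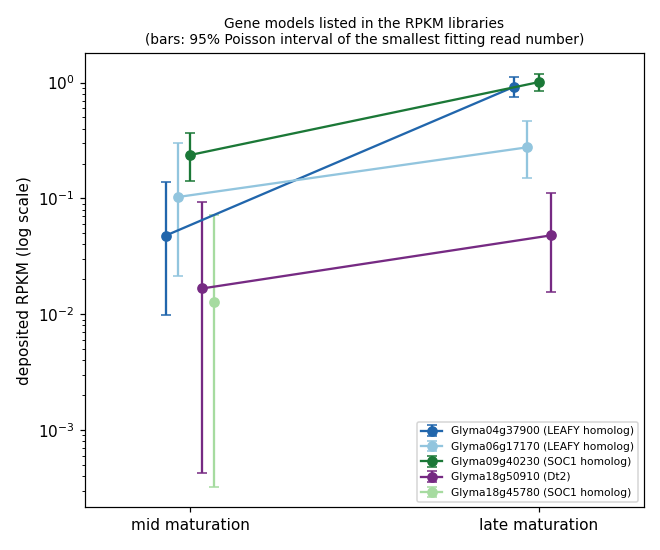
Deposited RPKM (log axis) of the 5 gene models listed at mid or late maturation, 1 library each, with 95% Poisson intervals of the smallest read number that fits the value. Glyma04g37900 moves from 0.0477 to 0.923 RPKM and Glyma06g17170 from 0.103 to 0.276. The mid values of both may rest on as few as 3 reads.

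Other genes of the flowering pathway were taken from a list of 14 published loci. In the bud against leaf, and against root, 6 of the 14 averaged at least 1 CPM and were therefore measured. Against leaf none of the 6 was called in either direction, where 3.65% of measured gene models were higher and 4.56% lower. Against root 2 were higher (COL1a and COL1b; 5.67% of measured gene models) and 1 lower (J; 7.87%). The homologs of the florigen gene FT, of which FT2a, FT2b and FT5a were listed as inducers of flowering, were low throughout. FT2a (Glyma16g26660) held 0 to 12 counts a library, and FT2b (Glyma16g26690), FT1a (Glyma18g53680) and FT4 (Glyma08g47810) had 0 counts in all 10. FT5a (Glyma16g04830) was highest in seeds, at 1.42 CPM in heart (34 counts) and 2.47 CPM in cotyledon (70 counts), against 0.196 in bud (8 counts). The legume flowering repressors E1La (Glyma04g24640) and E1Lb (Glyma18g22670) had 9 and 11 counts in seedling and 0 in the other 9 libraries.

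The photoperiod genes were broadly present. E2 (Glyma10g36600, a GIGANTEA homolog) ran from 30.9 CPM in dry seed to 245 in stem, the phytochrome A genes E3 (Glyma19g41210) from 2.64 in stem to 23.3 in dry seed and E4 (Glyma20g22160) from 44.4 at early maturation to 142 in seedling. J (Glyma04g05280, an ELF3 homolog of the circadian clock) ran from 14.0 in leaf to 109.7 in dry seed, and it was the 1 of 9 list loci with a value at mid or late maturation that was called between them, from 4.35 to 39.6 RPKM (10.9% of all measured gene models were called higher). The CONSTANS-like genes COL1a (Glyma08g28370) and COL1b (Glyma18g51320) peaked in leaf, at 59.7 and 139 CPM. Their lowest level was in root (0.0469 and 0.422 CPM), where the SOC1 homologs stood at 10.5 and 19.1 CPM. Both also had their highest seed level at the globular stage, 4.60 and 14.9 CPM, as did the SOC1 homolog Glyma18g45780. The Rubisco leaf marker Glyma19g06370 had its own highest seed level at early maturation (5.64 CPM, with 1.43 in globular). The source of these globular levels was not tested.

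**Figure D4:**
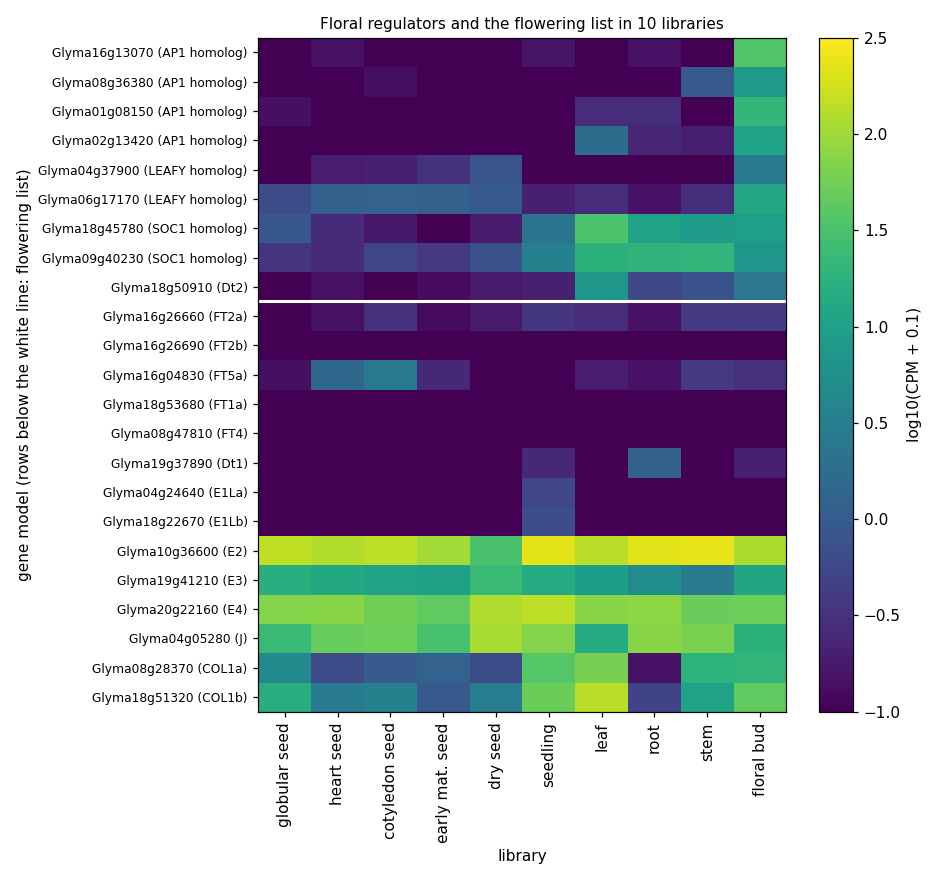
Levels as log10(CPM + 0.1) of the 9 floral regulators (above the white line) and the 14 flowering list loci (below it) in 10 libraries, 1 each. The AP1 and LEAFY rows are brightest in floral bud, the Dt2 row in leaf, and the E2 row is bright in every library, from 30.9 CPM in dry seed to 245 in stem.

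Patterns over the 10 count libraries were compared by Pearson correlation of log2(CPM + 1), as a description of 10 libraries and 29549 gene models that reached 10 CPM. Among the floral regulators, Glyma16g13070 and Glyma01g08150 had an r that rounded to 1 but a Spearman rho of 0.42, so this r rests on the 1 bud library. The LEAFY homologs had an r of 0.93 (rho 0.82) and the SOC1 homologs 0.94 (rho 0.73). Dt2 had r of 0.86 with Glyma18g45780, 0.70 with the AP1 homolog Glyma02g13420 and 0.39 with Glyma16g13070. Outside the set, 93 gene models had r of at least 0.99 with Glyma16g13070, led by Glyma17g31040 on chromosome 17, and 84 with Glyma01g08150, led by Glyma18g51370 on chromosome 18; these values rest on the 1 bud library. Glyma08g36380, Glyma04g37900 and Dt2 did not reach 10 CPM and were not compared with genes outside the set. For the other 4 compared no gene model reached 0.99, and the closest were Glyma02g13290 on chromosome 2 for Glyma02g13420 (0.987), Glyma07g31220 on chromosome 7 for Glyma06g17170 (0.957), Glyma07g08830 on chromosome 7 for Glyma18g45780 (0.972) and Glyma02g46600 on chromosome 2 for Glyma09g40230 (0.983). By Spearman rho these closest gene models ranked only 959th, 111th, 3rd and 268th, in the order given.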

How the data were processed

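For 10 libraries the authors deposited raw read counts per gene model; the submitters' processing notes name Bowtie for them. For mid and late maturation the authors deposited RPKM, for which those notes name Bowtie and bedtools. The sources used here do not give versions, genome build, annotation or the treatment of reads with several matches. The labels name single-end 76-base reads and the Illumina mRNA-Seq protocol, which does not mark strand.

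Counts were scaled with TMM factors (edgeR 4.0.16, R 4.3.3). Calls needed 4-fold, counts under 3 set to 3, and 10 CPM in the higher library; measured gene models averaged at least 1 CPM over the 2 libraries, or over all 10. Fold intervals are exact conditional binomial (Clopper-Pearson), at 95%, with scipy 1.17.1. RPKM values were compared as log2(RPKM + 0.5). Read depth behind RPKM was recovered from the 1500 lowest values, of which 87.4% (mid) and 91.1% (late) were whole reads for a whole gene length within 0.03; read numbers are the smallest that fit both libraries with a length whole to within 0.1 nt. The call rule and the depth recovery were checked on simulated data.

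Named genes were the 9 members, the flowering list, and for each member reaching 10 CPM the 2 gene models most alike in pattern, of which the first is printed. Members and lists were chosen with earlier results of these data known. Locus names are published assignments: none of 74818 identifiers matched the RefSeq table (Glycine_max_v4.0, 59048 genes), so no coordinates or sequences are given, and chromosomes follow the identifiers' naming convention. Alternatives tried were plain CPM, DESeq2 1.42.0 size factors, other thresholds, floors and pseudocounts, and leaving out the dry seed or the bud.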

Additional observations from a re-analysis of the deposited data

How the results depend on the processing

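Of 72 alternative values 12 moved and none reversed, where a count moved if it changed by over 1.5 times, a level if it left its 95% counting interval, and a log2 ratio if its sign changed. Below those limits, plain CPM took the calls higher in bud from 36 to 51 of 81, the genes above every other library from 4 to 5 and those higher outside the seed from 6 to 7; a minimum of 1 CPM gave 5 and 8 for the last 2. Plain CPM raised the bud levels of the 4 AP1 homologs to 44.5 (Glyma16g13070), 10.9 (Glyma08g36380), 26.1 (Glyma01g08150) and 14.1 CPM (Glyma02g13420), and of the LEAFY homologs to 3.32 (Glyma04g37900) and 15.3 CPM (Glyma06g17170); it also moved the median log2 ratio of bud to dry seed over gene models with at least 3 counts in both from -0.16 to 0.94. Each gene kept its highest library under TMM, plain CPM and DESeq2 size factors, while root and bud changed places for Glyma18g45780 under plain CPM. A minimum of 1 CPM moved the calls higher in bud from 36 to 71 of 81, the rises over the seed steps from 0 to 2 of 45 (both SOC1 homologs, dry seed to seedling) and the calls among vegetative organs from 5 to 11 of 54, and a 2-fold threshold moved the calls lower in bud from 0 to 4. Without the floral bud library, 2 in place of 6 genes were higher outside the seed, both SOC1 homologs. By Spearman, 5 of the 12 most alike gene models were among the 20 most alike. No paired analysis was possible because each group had 1 library. Levels under 3 counts were below what this depth can resolve.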
